A study of Mus musculus with 20 samples.

Results

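Glycolysis and glycogen metabolism were followed through 44 genes, the rows of the expression table whose gene name was on a list of glycolytic enzymes (18 genes), genes of glycogen synthesis, breakdown and their control (16), enzymes that set the level of fructose 2,6-bisphosphate or reverse the phosphofructokinase step (4), glucose and lactate transporters (4) and cytosolic glycerol-3-phosphate dehydrogenases (2). All 44 were among the 32285 genes of the table and all passed the filter on low values. The libraries came from gastrocnemius muscle of male mice that were 12 weeks old, 7 days after surgery, and formed 4 groups of 5: Opg-/- den, Opg-/- sham, WT den and WT sham. In den limbs (right) the sciatic nerve was cut and a stretch removed, and in sham limbs (left) the nerve was exposed and left whole. The Opg-/- mice carried Tnfrsf11btm1Smoc, a knockout of the gene for osteoprotegerin on the C57BL/6 background that was not limited to muscle, and every sham limb belonged to a mouse that had also lost the nerve of the other limb.

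Glycolysis splits glucose into pyruvate, and in fast muscle much of that glucose comes from glycogen stored in the fibre. Glycogen phosphorylase releases it when phosphorylase kinase, which responds to calcium and to cyclic AMP signalling, switches the enzyme on, while glycogen synthase, glycogenin and the branching enzyme build the polymer. Several steps have a form found mainly in skeletal muscle and another that most tissues make, such as muscle enolase (Eno3) and ubiquitous enolase (Eno1). Among the 44 genes 12 are labelled as muscle isozymes, a label that does not mean they are limited to muscle. Some of the 13 partners are forms of brain (Aldoc, Pygb) or liver (Pfkl, Phka2, Phkg2) and not of most tissues.

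Values are normalized expected counts, the RSEM estimates of reads per gene divided by 1 size factor per library. Reads assigned to genes, recovered from the smallest steps of the values, numbered 15186247 to 20102295 per library, and the 10 most abundant genes held 10.3% to 13.3% of the values in den libraries and 22.7% to 27.0% in sham libraries. The reads of WT sham 1 and 2 were closer to each other than sampling noise allows for separate libraries (a chi-squared of 0.337 for each degree of freedom, where the 39 other pairs of a group gave 7.13 to 27.45), so the mean of both entered as 1 library, which left n = 4 in WT sham and n = 5 elsewhere. Nothing states that the libraries of a group came from separate mice, so p-values measure the spread between these libraries. The 12 markers of skeletal muscle fibres were abundant in every library, although lower in sum in den muscle. Tnfrsf11b itself was near the limit of detection in every group (1.89 to 11.9 in Opg-/- den, 6.06 to 11.2 in Opg-/- sham, 1.73 to 6.38 in WT den and 1.18 to 5.51 in WT sham), so its level did not check the genotype labels.

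Denervated muscle of both genotypes had lower levels of most of the pathway. Of the 44 genes, 31 fell and 6 rose in Opg-/- den against sham muscle, and 31 fell and 6 rose in WT, at an adjusted p under 0.05 in limma (a linear model fitted to log2(value + 1) over all 17948 genes tested). Of all genes tested, 26.4% fell and 28.6% rose in Opg-/- mice, and 25.7% fell and 26.9% rose in WT. With an absolute log2 fold change above 1 as well, 23 of the 44 fell and 3 rose in Opg-/- mice (10.2% and 11.4% of all genes), and 22 fell and 2 rose in WT (10.2% and 9.59% of all genes). The median log2 fold change of the 44 genes was -1.14 in Opg-/- and -0.98 in WT mice, against 0.021 and -0.0022 over all genes. Together the 44 genes held 2.44% to 3.10% of all values in Opg-/- den libraries, against 6.70% to 7.45% in Opg-/- sham libraries. In WT they held 2.63% to 3.11% in den libraries, against 6.85% to 7.14% in sham libraries. In both genotypes 30 of the genes fell and 5 rose.

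Genes with small changes depended on the scaling. When every library was scaled to the same total, the median of all genes moved up by 0.40 in Opg-/- and 0.27 in WT mice, and the calls over all genes changed to 2295 lower and 8534 higher in Opg-/- mice, from 4736 and 5125 with the deposited scaling. In WT they changed to 2722 lower and 7041 higher, from 4604 and 4827. Under that scaling 25 of the 44 genes fell and 11 rose in Opg-/- mice, and 25 fell and 9 rose in WT. Among genes called under at least 1 of these scalings, the sign turned for Gyg, Pfkfb4, Gpd1l, Epm2a and, in Opg-/- mice, Ugp2, all with changes under 0.4 on the log2 scale, and each is marked where it appears.

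**Figure D1:**
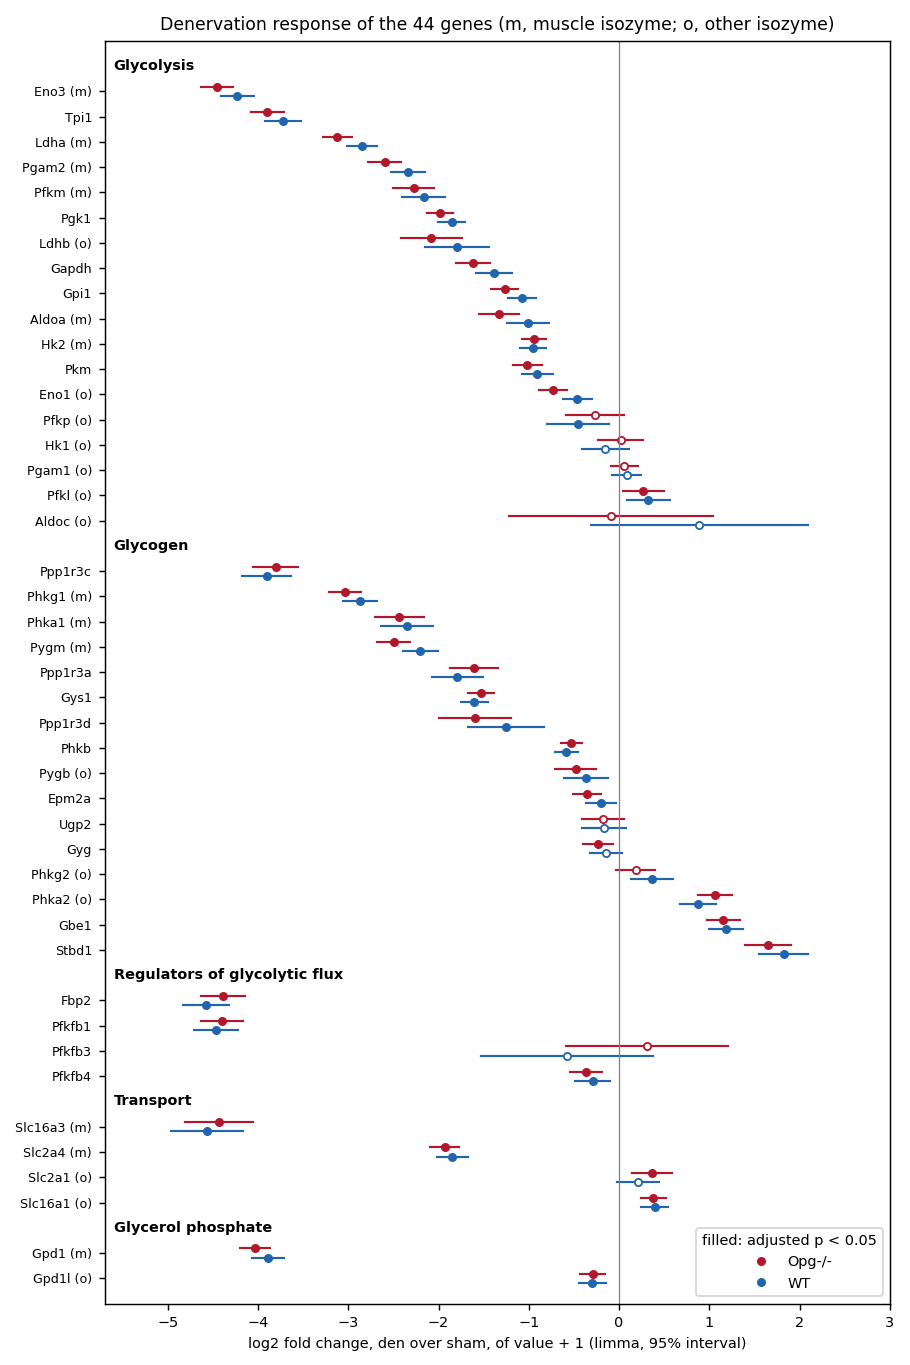
Log2 fold change of den over sham muscle for each of the 44 genes, with 95% intervals from limma, by role and sorted within a role by the change in WT mice. Red points are Opg-/- mice, blue points are WT mice, and filled points have an adjusted p under 0.05. The muscle isozymes (m) lie below 0 in both genotypes (12 of 12), and Stbd1, Gbe1 and Phka2 lie farthest right among the filled points.

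The 18 glycolytic enzymes and the 16 glycogen genes both held genes that fell and genes that rose. Among glycolytic enzymes 13 fell and 1 rose in Opg-/- mice, and 14 fell and 1 rose in WT, with medians of -1.30 and -1.04. Among glycogen genes 11 fell and 3 rose in Opg-/- mice, and 10 fell and 4 rose in WT, with medians of -0.50 and -0.47. The range was wide in both roles, from -4.45 (Eno3) to 0.27 (Pfkl) among glycolytic enzymes called in Opg-/- mice and from -3.81 (Ppp1r3c) to 1.65 (Stbd1) among glycogen genes. Over all genes tested the shares were 26.4% lower and 28.6% higher in Opg-/- mice, and 25.7% and 26.9% in WT. The difference between the roles was not tested.

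Promoter sequences of 5 genes are shown because these genes stand for the directions seen: Eno3, Pgam2 and Ldha, muscle forms that fell, and Gbe1 and Stbd1, glycogen genes that rose. Each is the 250 bases before the transcription start in the RefSeq table (GRCm38.p6), written from 5′ to 3′ on the strand of the gene. Capitals mark matches on either strand to the E-box CANNTG (the core bound by MyoD-family factors), to the hypoxia element core ACGTG and to the MEF2 motif. The letters CACGTG count as both an E-box and, on each strand, a hypoxia core.
Eno3 promoter, chr11:70656926-70657175, plus strand: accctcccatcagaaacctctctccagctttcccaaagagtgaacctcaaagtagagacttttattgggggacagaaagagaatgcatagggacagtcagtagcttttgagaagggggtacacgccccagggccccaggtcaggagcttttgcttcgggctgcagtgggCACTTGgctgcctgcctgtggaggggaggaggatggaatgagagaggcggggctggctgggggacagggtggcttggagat
Pgam2 promoter, chr11:5803797-5804046, minus strand: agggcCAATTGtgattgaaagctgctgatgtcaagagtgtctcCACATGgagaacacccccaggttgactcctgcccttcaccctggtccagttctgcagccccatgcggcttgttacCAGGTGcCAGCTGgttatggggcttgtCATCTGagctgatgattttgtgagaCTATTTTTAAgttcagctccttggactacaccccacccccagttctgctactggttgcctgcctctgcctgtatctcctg
Ldha promoter, chr7:46845554-46845803, plus strand: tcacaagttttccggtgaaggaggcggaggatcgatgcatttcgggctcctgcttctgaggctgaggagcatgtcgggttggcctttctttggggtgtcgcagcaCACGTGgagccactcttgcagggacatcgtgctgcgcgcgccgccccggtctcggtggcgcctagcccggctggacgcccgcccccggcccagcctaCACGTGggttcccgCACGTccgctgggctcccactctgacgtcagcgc
Gbe1 promoter, chr16:70313699-70313948, plus strand: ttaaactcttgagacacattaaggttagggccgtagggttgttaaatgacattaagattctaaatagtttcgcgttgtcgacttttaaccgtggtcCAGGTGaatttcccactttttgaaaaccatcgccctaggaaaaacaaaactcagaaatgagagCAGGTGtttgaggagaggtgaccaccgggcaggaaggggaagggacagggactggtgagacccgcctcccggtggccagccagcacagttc
Stbd1 promoter, chr5:92602801-92603050, plus strand: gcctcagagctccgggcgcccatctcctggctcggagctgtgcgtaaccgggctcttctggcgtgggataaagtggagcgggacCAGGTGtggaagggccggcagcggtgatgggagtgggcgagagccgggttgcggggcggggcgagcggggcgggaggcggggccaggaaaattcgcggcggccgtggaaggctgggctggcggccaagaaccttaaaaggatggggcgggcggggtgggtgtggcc

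Pgam2 had 5 E-box matches and 1 MEF2 match, and Ldha had 2 CACGTG sequences, which gave 2 E-box and, with 1 further site, 5 hypoxia core matches. The window of Gbe1 held 2 E-box matches, and those of Eno3 and Stbd1 held 1 each. Of the 44 genes 42 matched the table by symbol (Slc2a4 and Gpd1 did not). In the first window listed for each, E-box matches occurred in 69.0% of the 42 genes, against 66.2% of all 32851 windows. Hypoxia core matches occurred in 40.5% (17 genes), against 16.6% of all windows, and MEF2 matches in 4.76% (Pgam2 and Ppp1r3a), against 2.92%. Among the 28 matched genes that fell in both genotypes, 12 had a hypoxia core match, and among the 5 that rose in both, 1 had one (Slc16a1). The share among genes that fell, 42.9%, was near the 40.5% of all 42 genes. The remaining matches were in Pgam1, Ugp2, Pfkfb3 and Slc2a1, which were not called in both genotypes. A link of the match with the direction of change was not tested. The median GC content of the windows was 57.8% for 10 muscle isozymes and 60.0% for 13 other isozymes, against 52.4% over all windows. A match describes letters in the window and does not show that a factor binds there.

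Along the glycolytic chain the fall was uneven. Hexokinase II (Hk2), which traps glucose in the fibre, changed by -0.94 in Opg-/- and -0.96 in WT mice. Glucose phosphate isomerase (Gpi1) changed by -1.27 in Opg-/- and -1.07 in WT mice, muscle phosphofructokinase (Pfkm), the committed step, by -2.28 in Opg-/- and -2.16 in WT mice, and aldolase A (Aldoa) by -1.33 in Opg-/- and -1.01 in WT mice. These are log2 fold changes of den over sham, and all 4 genes fell in both genotypes. Triosephosphate isomerase (Tpi1), which interconverts both products of aldolase, fell far more. Tpi1 values were 3569, 2578, 2814, 2819 and 2733 in Opg-/- den muscle, against 45947, 39200.0, 45549, 42397 and 41944 in Opg-/- sham muscle. They were 2508, 2472, 3344, 3375 and 3067 in WT den muscle, against 42546, 38238, 35748 and 38736 in WT sham muscle. No den library reached the level of a sham library, and the log2 fold change was -3.90 ± 0.09 (SE, adjusted p = 7.7e-24) in Opg-/- and -3.73 ± 0.10 (SE, adjusted p = 1.3e-22) in WT mice. Opg-/- den 1 had the highest Tpi1 value of its group, above the other 4 libraries by a wide gap.

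Gapdh, the next step, served the study as internal control for qRT-PCR. It was not stable between limbs. Between genotypes it was not called in either limb in limma. The log2 fold change of Opg-/- over WT was -0.12 in den (adjusted p = 0.87) and 0.11 in sham muscle (adjusted p = 0.67). Gapdh values were 73668, 58623, 62546, 61501 and 51754 in Opg-/- den muscle, against 237659.9, 184879, 179237, 172281 and 175804 in Opg-/- sham muscle. They were 60529.9, 66309, 64426, 74290.2 and 68252 in WT den muscle, against 192468, 162116, 173334 and 170160.0 in WT sham muscle. Den and sham groups did not overlap in either genotype, and the log2 fold change was -1.62 ± 0.09 (SE, adjusted p = 5.3e-15) in Opg-/- and -1.39 ± 0.10 (SE, adjusted p = 8.1e-13) in WT mice. Opg-/- sham 1 stood above the other sham libraries. The fall in Opg-/- mice remained called without it, as it did without any other single library. Of the 100-base stretches in Gapdh exons, 20.9% also occur in another gene, mostly the pseudogene Gm7336, so part of its value depends on how RSEM divided such reads.

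Phosphoglycerate kinase (Pgk1), which makes the first ATP of the pathway, changed by -1.98 in Opg-/- and -1.86 in WT mice, with 51.7% of its 100-base stretches shared with other genes (Pgk1-rs7 above all). Pyruvate kinase (Pkm) changed by -1.02 in Opg-/- and -0.91 in WT mice, and muscle lactate dehydrogenase (Ldha) by -3.12 in Opg-/- and -2.85 in WT mice. Ldhb, the form that favours use of lactate and is typical of oxidative muscle, fell as well, with a log2 fold change of -2.08 ± 0.16 (SE, adjusted p = 2.2e-09) in Opg-/- and -1.80 ± 0.17 (SE, adjusted p = 4.3e-08) in WT mice. It was the single isozyme of the non-muscle class to fall by more than 1 on that scale. Hk1, Pgam1 and Aldoc passed the threshold in neither genotype, and Pfkp passed it in WT alone (log2 fold change -0.45 ± 0.17 (SE, adjusted p = 0.024), against -0.27 ± 0.16 (SE, adjusted p = 0.16) in Opg-/- mice). The WT call of Pfkp was lost without WT den 4 (adjusted p = 0.098), WT sham 4 (0.058) or WT sham 5 (0.053) and with equal library totals (log2 fold change -0.15, adjusted p = 0.54), and 17.4% of its exon bases overlap Pitrm1. That scaling also gave Hk1 a call as higher in Opg-/- mice (log2 fold change 0.47, adjusted p = 0.0026). Aldoc, the brain aldolase, was near the limit of detection, with means of 7.96 in Opg-/- den, 8.19 in Opg-/- sham, 9.08 in WT den and 6.95 in WT sham muscle. Its WT value passed the threshold without WT sham 5 (log2 fold change 1.43, adjusted p = 0.045).

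Pfkl, the liver form of phosphofructokinase, was the only glycolytic enzyme of the 18 to rise with the deposited scaling (Hk1 in Opg-/- mice and Pgam1 in both genotypes also rose with equal library totals). Its values were 262, 225, 235, 246 and 245 in Opg-/- den muscle, against 218, 205, 170.0, 206 and 208 in Opg-/- sham muscle. They were 223, 208, 265, 293 and 257 in WT den muscle, against 168, 169, 233 and 229 in WT sham muscle. The groups did not overlap in Opg-/- mice and overlapped in WT, and the log2 fold change was 0.27 ± 0.11 (SE, adjusted p = 0.039) in Opg-/- and 0.32 ± 0.12 (SE, adjusted p = 0.021) in WT mice. The call was lost without any 1 of 5 libraries in Opg-/- mice (Opg-/- den 1, 4 or 5, Opg-/- sham 2 or 3, adjusted p 0.051 to 0.12) and without WT den 4, WT sham 3 or the averaged WT sham 1 and 2 in WT (0.067, 0.098 and 0.0997).

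The enolase pair showed the widest gap between isozymes of a glycolytic step. Eno3 (ENSMUSG00000060600, chromosome 11, 70657202 to 70662513 of mm10) had values of 6242, 4989.7, 4759.7, 5483 and 5097 in Opg-/- den muscle, against 135449, 111165, 112227, 114432 and 108109.9 in Opg-/- sham muscle. Its values were 4826, 5185, 6334, 5513 and 6104 in WT den muscle, against 118484, 98889, 101931 and 99126 in WT sham muscle. Every den library lay far below every sham library of the same genotype, and the log2 fold change was -4.45 ± 0.09 (SE, adjusted p = 1.2e-25) in Opg-/- and -4.23 ± 0.09 (SE, adjusted p = 2.0e-24) in WT mice. Opg-/- sham 1 was the highest of its group and WT sham 1 and 2, counted as 1, the highest of theirs. Eno1 had values of 1429.5, 1618, 1616, 1695 and 1559.8 in Opg-/- den muscle, against 2887, 2265, 2595, 2968 and 2469 in Opg-/- sham muscle. The WT libraries had 1458, 1612, 1491, 1485 and 1511 in WT den muscle, against 2349.6, 1992, 1843 and 2169 in WT sham muscle. Its groups also did not overlap, but the log2 fold change was only -0.73 ± 0.08 (SE, adjusted p = 1.7e-09) in Opg-/- and -0.46 ± 0.08 (SE, adjusted p = 1.4e-05) in WT mice, and 20.4% of its 100-base stretches are shared (Eno1b above all, whose own values stayed between 1.47 and 7.17). With equal library totals the WT call of Eno1 was lost (log2 fold change -0.16, adjusted p = 0.11).

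Phosphoglycerate mutase, the step before enolase, gave the same contrast with a flat partner. Pgam2 (ENSMUSG00000020475, chromosome 11, 5801640 to 5803733), the muscle form, had values of 6339.9, 5118, 5291, 5368 and 4746 in Opg-/- den muscle, against 38082, 30725, 32294, 32811 and 28612 in Opg-/- sham muscle. Values in WT mice were 4829.8, 5877, 5957, 7121 and 5684 in WT den muscle, against 30512, 28729, 28903 and 30250.1 in WT sham muscle. Den and sham groups were far apart, with a log2 fold change of -2.60 ± 0.09 (SE, adjusted p = 3.8e-20) in Opg-/- and -2.34 ± 0.09 (SE, adjusted p = 2.4e-18) in WT mice. Pgam1, the form of most other tissues, had values of 389, 363, 327, 387 and 350.1 in Opg-/- den muscle, against 337, 358, 371, 358 and 316 in Opg-/- sham muscle. For WT the values were 411, 413, 429.6, 432 and 419 in WT den muscle, against 405, 355, 411 and 420.1 in WT sham muscle. These groups overlapped in both genotypes, and the log2 fold change was 0.06 ± 0.07 (SE, adjusted p = 0.52) in Opg-/- and 0.08 ± 0.08 (SE, adjusted p = 0.39) in WT mice. Equal library totals raised it to 0.51 in Opg-/- and 0.39 in WT mice (adjusted p = 6.7e-06 and 0.00052), so its lack of a call held for the deposited scaling only. Of its 100-base stretches, 33.9% also occur in other genes (the pseudogene Pgam1-ps2 above all).

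**Figure D2:**
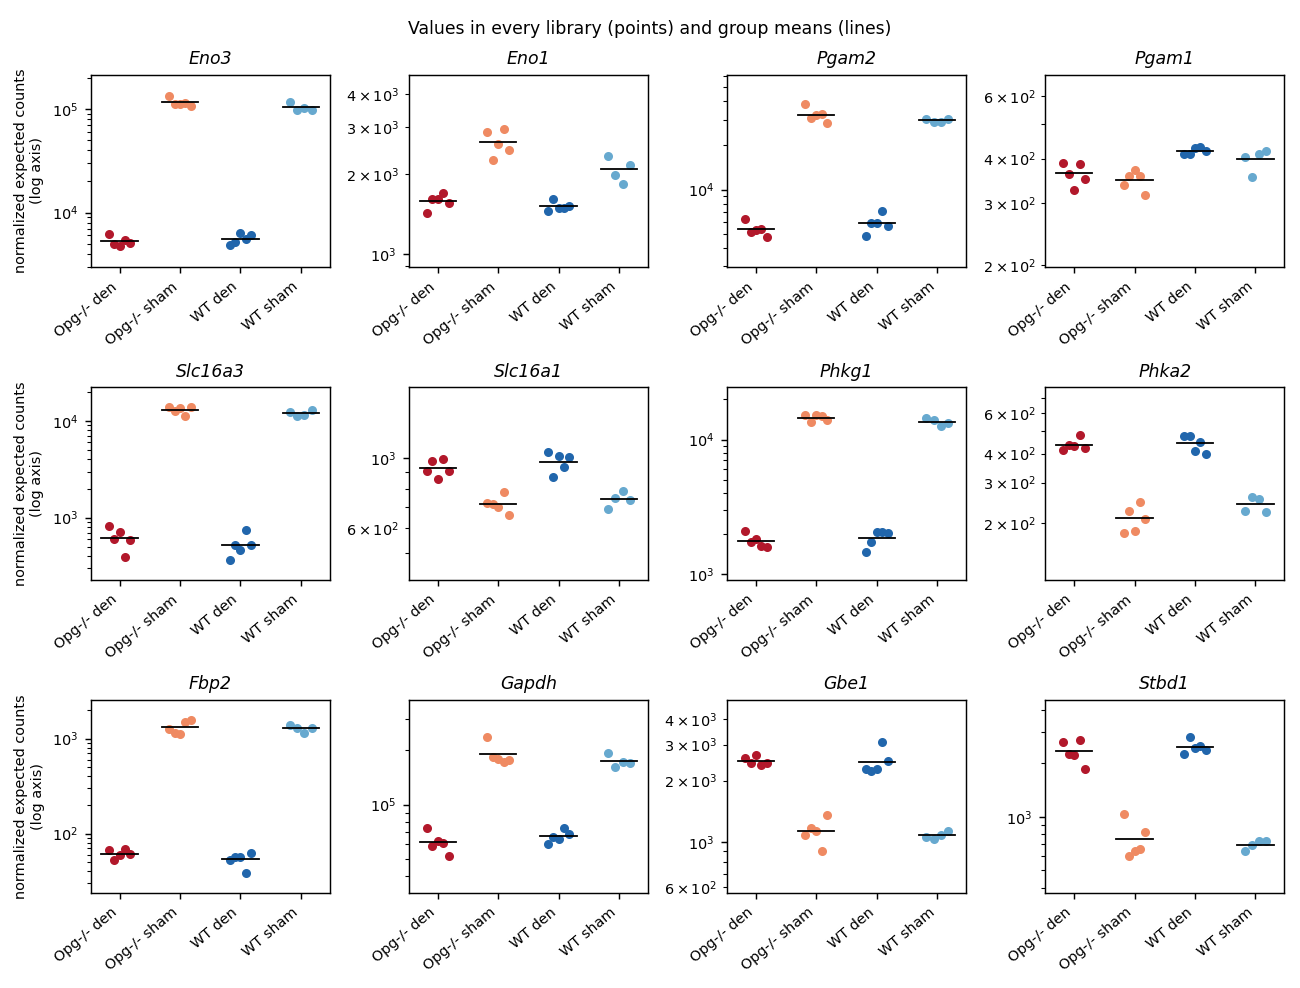
Normalized expected counts on a log axis in every library (points) and group means (lines) for 12 genes, in Opg-/- den, Opg-/- sham, WT den and WT sham muscle. Eno3, Pgam2, Slc16a3, Phkg1, Fbp2 and Gapdh are lower in every den library than in any sham library of the same genotype, Phka2, Slc16a1, Gbe1 and Stbd1 are higher, and Pgam1 overlaps.

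Across all 13 pairs the ratio of the muscle isozyme to its partner was lower in den muscle. All 12 muscle isozymes fell in both genotypes, with medians of -2.55 in Opg-/- and -2.34 in WT mice. Of the 13 partners 4 fell and 4 rose in Opg-/- mice and 5 fell and 4 rose in WT, with medians of 0.02 and 0.08. Of all genes tested 26.4% fell and 28.6% rose in Opg-/- mice, and 25.7% fell and 26.9% rose in WT. The log2 ratio of the values, each plus 1, was compared between den and sham libraries by a two-sided exact permutation test, adjusted over 26 tests (13 pairs in 2 genotypes). The size factor of a library cancels in such a ratio except for the added 1, which weighs on low values such as those of Aldoc (0 in WT sham 3). The smallest p that the design allows is 0.0079 for 5 against 5 libraries and 0.016 for 5 against 4. Of the 26 ratios 24 reached it (adjusted p = 0.017), since den and sham libraries did not overlap. The exceptions were Aldoa/Aldoc in each genotype (exact permutation p = 0.032, adjusted p = 0.032), where the groups overlapped and Aldoc gave only a few reads.

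The largest shift was in the monocarboxylate transporters, where the log2 ratio Slc16a3/Slc16a1 differed by -4.81 between den and sham muscle of Opg-/- mice and by -4.96 in WT. Enolase (Eno3/Eno1) differed by -3.72 and -3.77, and glycerol-3-phosphate dehydrogenase (Gpd1/Gpd1l) by -3.74 and -3.59. The catalytic and regulatory subunits of phosphorylase kinase followed, with -3.50 and -3.22 for Phka1/Phka2 and -3.23 and -3.23 for Phkg1/Phkg2. The smallest shifts outside aldolase were in lactate dehydrogenase (Ldha/Ldhb, -1.04 and -1.05), where both forms fell, and hexokinase (Hk2/Hk1, -0.96 and -0.80).

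**Figure D3:**
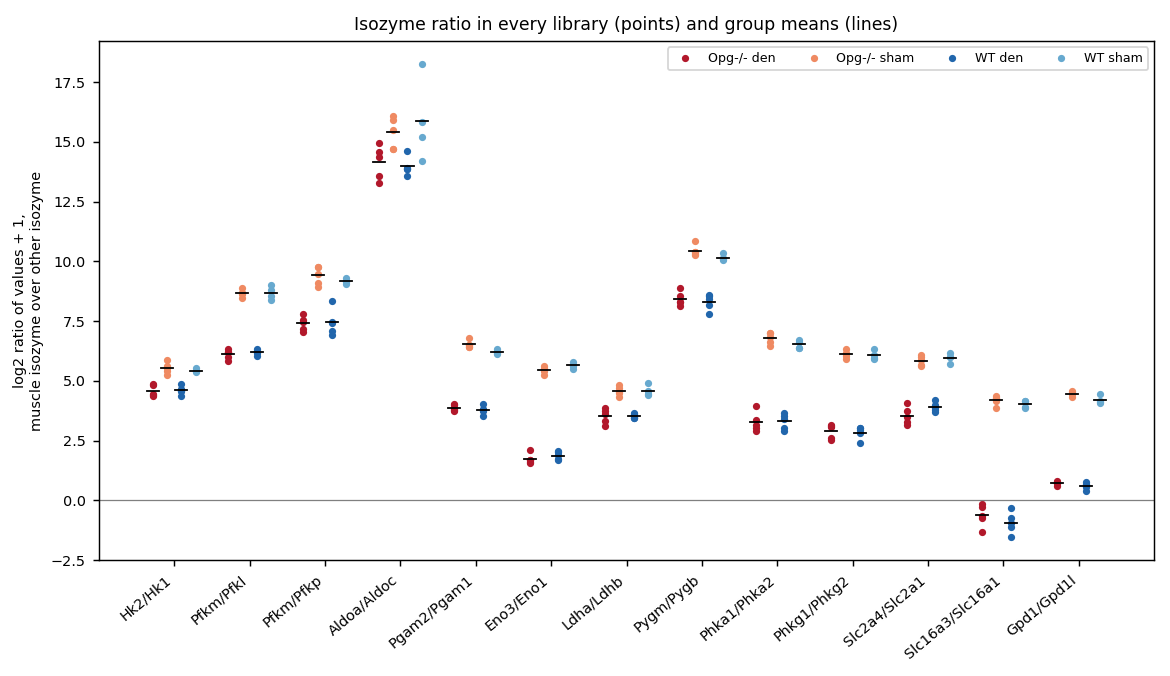
Log2 ratio of value + 1 of the muscle isozyme over value + 1 of the other isozyme, for 13 pairs, in every library (points) with group means (lines), in Opg-/- den, Opg-/- sham, WT den and WT sham muscle. Den libraries lie below sham libraries of the same genotype without overlap in 12 pairs and overlap in Aldoa/Aldoc. Slc16a3/Slc16a1 is the pair whose den libraries lie below 0, at means of -0.62 in Opg-/- and -0.93 in WT mice.

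A lower ratio did not mean that the partner became the main form. Per kilobase of exon, Eno3 still made up 84.4% ± 1.9 of both enolases in Opg-/- den muscle, against 98.6% ± 0.13 in Opg-/- sham muscle (SD, n = 5 each). In WT it made up 85.6% ± 1.5 in den muscle (SD, n = 5), against 98.8% ± 0.093 in sham muscle (SD, n = 4). Pgam2 made up 96.9% ± 0.26 of both mutases in Opg-/- den muscle, against 99.5% ± 0.053 in Opg-/- sham muscle, and Gpd1 73.7% ± 0.9 of its pair, against 97.4% ± 0.17. Among the 12 enzymes and transporters with a pair, the main form changed for the monocarboxylate transporters alone. Slc16a3 held 39.5% ± 7.5 of that pair in Opg-/- den muscle, against 94.8% ± 0.72 in Opg-/- sham muscle, and 34.5% ± 6.9 in WT den muscle, against 94.2% ± 0.53 in WT sham muscle.

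Glycogen genes that fell included both the machinery of breakdown and that of synthesis. Muscle glycogen phosphorylase (Pygm), the enzyme missing in McArdle disease, changed by -2.49 in Opg-/- and -2.20 in WT mice on the log2 scale and glycogen synthase (Gys1) by -1.53 in Opg-/- and -1.60 in WT mice. Phkg1, the catalytic subunit of muscle phosphorylase kinase, had values of 2104, 1741, 1836, 1615 and 1599 in Opg-/- den muscle, against 15204, 13398, 15256, 15057 and 13941 in Opg-/- sham muscle. In WT it had 1457, 1729, 2053, 2076 and 2022 in WT den muscle, against 14371, 13908, 12689 and 13223 in WT sham muscle. Each den library was lower than every sham library of its genotype, and the log2 fold change was -3.04 ± 0.09 (SE, adjusted p = 6.0e-22) in Opg-/- and -2.87 ± 0.09 (SE, adjusted p = 1.3e-20) in WT mice. Its exons overlap those of Sumf2 over 26.5% of their bases, and the libraries carry no strand. Phka1, the muscle alpha subunit, changed by -2.44 in Opg-/- and -2.35 in WT mice, and Phkb, the beta subunit, by -0.53 in Opg-/- and -0.59 in WT mice. With equal library totals the Opg-/- call of Phkb was lost (log2 fold change -0.077, adjusted p = 0.15).

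A set of 3 subunits that target protein phosphatase 1 to glycogen, where it activates the synthase, fell in both genotypes. Ppp1r3c, one of them, had values of 1919, 1923, 1596, 1470.1 and 2286 in Opg-/- den muscle, against 30837, 24724, 25979, 19101 and 28087 in Opg-/- sham muscle. The WT libraries had 1423, 1477, 1485, 1244 and 1487 in WT den muscle, against 25075, 18128, 20864 and 21578 in WT sham muscle. Every den value was far below every sham value, with a log2 fold change of -3.81 ± 0.12 (SE, adjusted p = 7.9e-17) in Opg-/- and -3.90 ± 0.13 (SE, adjusted p = 1.8e-16) in WT mice. Ppp1r3a, the muscle form, changed by -1.61 in Opg-/- and -1.79 in WT mice, and Ppp1r3d by -1.59 in Opg-/- and -1.25 in WT mice. Pygb, the brain phosphorylase, changed by -0.48 in Opg-/- and -0.36 in WT mice, but with equal library totals by -0.03 and -0.06 (adjusted p = 0.86 and 0.74). Epm2a, which encodes the glycogen phosphatase laforin, changed by -0.36 in Opg-/- and -0.20 in WT mice with the deposited scaling and by 0.10 and 0.11 with equal library totals, and its WT call was lost without WT den 1, WT den 2, WT den 5, WT sham 5 or the averaged WT sham 1 and 2 (adjusted p 0.058 to 0.15). Gyg (glycogenin, the primer of the polymer) had log2 fold changes of -0.23 in Opg-/- and -0.15 in WT mice and was called in Opg-/- mice alone, a call lost without Opg-/- den 5, Opg-/- sham 1 or Opg-/- sham 5 (adjusted p 0.053 to 0.072). With equal library totals it was higher, at 0.22 and 0.16 (adjusted p = 0.0031 and 0.042). Ugp2, which makes UDP-glucose, was called in neither genotype (log2 fold change -0.18 in Opg-/- and -0.17 in WT mice), but as lower in Opg-/- mice without Opg-/- den 1 (-0.27, adjusted p = 0.030) and as higher with equal library totals (0.27, adjusted p = 0.032).

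Of the 16 glycogen genes 4 rose in at least 1 genotype. Stbd1 (ENSMUSG00000047963, chromosome 5, 92603041 to 92606579), a starch-binding protein that anchors glycogen to membranes, had values of 2642, 2249.6, 2230.0, 2728 and 1869.8 in Opg-/- den muscle, against 1045, 599, 645, 661 and 827 in Opg-/- sham muscle. Values in WT mice were 2259.5, 2837, 2433, 2497 and 2385 in WT den muscle, against 639, 692, 732 and 734 in WT sham muscle. All den libraries were above all sham libraries, and the log2 fold change was 1.65 ± 0.12 (SE, adjusted p = 2.3e-10) in Opg-/- and 1.82 ± 0.13 (SE, adjusted p = 1.4e-10) in WT mice, the largest rise of the 44 genes. Gbe1 (ENSMUSG00000022707, chromosome 16, 70313949 to 70569716), the branching enzyme, had values of 2574, 2437, 2679, 2372 and 2427 in Opg-/- den muscle, against 1083, 1169, 1129, 905 and 1361 in Opg-/- sham muscle. For WT the values were 2284, 2229.9, 2288, 3089 and 2485 in WT den muscle, against 1054, 1038, 1082 and 1137 in WT sham muscle. The groups again did not overlap, with a log2 fold change of 1.16 ± 0.09 (SE, adjusted p = 3.1e-12) in Opg-/- and 1.19 ± 0.09 (SE, adjusted p = 7.4e-12) in WT mice. Gbe1 thus rose while Gys1, which lengthens the chains that it branches, fell.

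Phka2, the liver alpha subunit of phosphorylase kinase, had values of 413, 434, 430.0, 484 and 422 in Opg-/- den muscle, against 182, 226, 184, 248 and 208 in Opg-/- sham muscle. In WT it had 476, 479, 412, 452 and 398 in WT den muscle, against 226, 260.0, 255 and 224 in WT sham muscle. It rose without overlap, by a log2 fold change of 1.06 ± 0.09 (SE, adjusted p = 3.9e-11) in Opg-/- and 0.88 ± 0.10 (SE, adjusted p = 7.2e-09) in WT mice, while Phka1 fell. Phkg2, the liver catalytic subunit, had values of 240.5, 205, 208, 264 and 278 in Opg-/- den muscle, against 232, 221, 216, 206 and 172 in Opg-/- sham muscle. The WT libraries had 274, 224, 253, 256 and 287 in WT den muscle, against 178, 231, 201 and 194 in WT sham muscle. These groups overlapped in both genotypes. The log2 fold change was 0.19 ± 0.11 (SE, adjusted p = 0.14) in Opg-/- and 0.36 ± 0.11 (SE, adjusted p = 0.0077) in WT mice, so that the WT rise alone was called, and with equal library totals the Opg-/- rise passed as well (0.64, adjusted p = 5.6e-05). Over 40.3% of its exon bases Phkg2 overlaps Ccdc189.

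The regulators of the phosphofructokinase step included 2 of the deepest falls of the 44 genes. Fbp2 (ENSMUSG00000021456, chromosome 13, 62836877 to 62858422), the muscle fructose bisphosphatase that runs the step backwards, had values of 67.1, 52.6, 59.9, 68.7 and 60.4 in Opg-/- den muscle, against 1274, 1137, 1121, 1491 and 1584 in Opg-/- sham muscle. Values in WT mice were 53.2, 57.2, 56.9, 38.3 and 63 in WT den muscle, against 1406, 1284, 1159 and 1304 in WT sham muscle. All den values were far below any sham value, with a log2 fold change of -4.39 ± 0.12 (SE, adjusted p = 1.8e-22) in Opg-/- and -4.57 ± 0.13 (SE, adjusted p = 3.7e-22) in WT mice. Pfkfb1, a bifunctional enzyme that makes and removes fructose 2,6-bisphosphate, the strongest activator of phosphofructokinase, had values of 104, 66.4, 88.3, 67 and 84 in Opg-/- den muscle, against 1538, 1821, 1926, 1776 and 1589 in Opg-/- sham muscle. For WT the values were 67, 81.5, 63.3, 84 and 70.9 in WT den muscle, against 1849.9, 1441, 1733 and 1537 in WT sham muscle. Its fall was as deep, at -4.40 ± 0.11 (SE, adjusted p = 3.9e-23) in Opg-/- and -4.47 ± 0.12 (SE, adjusted p = 1.9e-22) in WT mice. Pfkfb4 changed by -0.37 in Opg-/- and -0.29 in WT mice, and with equal library totals by 0.09 and 0.01. Pfkfb3, the form with the highest kinase activity, passed the threshold in neither genotype, with a log2 fold change of 0.31 ± 0.42 (SE, adjusted p = 0.56) in Opg-/- and -0.58 ± 0.45 (SE, adjusted p = 0.3) in WT mice. It varied widely between libraries, with values from 1618 to 3576 in Opg-/- den, 1407 to 3138 in Opg-/- sham, 886 to 3559 in WT den and 1887 to 5308 in WT sham libraries.

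The transporters moved in opposite directions by isoform. Slc16a3 (ENSMUSG00000025161, chromosome 11, 120948480 to 120960868) encodes MCT4, which exports lactate from glycolytic fibres. Its values were 820.1, 595, 716, 394 and 587 in Opg-/- den muscle, against 13905, 12761, 13618, 11387 and 13814 in Opg-/- sham muscle. In WT it had 365, 523, 464, 746 and 522 in WT den muscle, against 12338, 11373, 11637 and 13067 in WT sham muscle. The fall was -4.43 ± 0.18 (SE, adjusted p = 7.8e-13) in Opg-/- and -4.56 ± 0.19 (SE, adjusted p = 1.5e-12) in WT mice on the log2 scale, with no overlap. Slc16a1, which encodes MCT1, a lactate importer of oxidative fibres and of many other cells, had values of 912, 982, 857, 990.0 and 912 in Opg-/- den muscle, against 721, 716, 702, 781 and 660.1 in Opg-/- sham muscle. The WT libraries had 1044, 870.1, 1018, 936 and 1005 in WT den muscle, against 693, 746, 786 and 739 in WT sham muscle. It rose without overlap, by 0.38 ± 0.07 (SE, adjusted p = 2.2e-05) in Opg-/- and 0.39 ± 0.07 (SE, adjusted p = 2.9e-05) in WT mice.

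Slc2a4 encodes GLUT4, the transporter that insulin and contraction bring to the fibre surface. Its values were 6339, 4322, 5099, 4319 and 4701 in Opg-/- den muscle, against 18112, 18594, 18499, 18709.6 and 19670.0 in Opg-/- sham muscle. Values in WT mice were 5351, 5069, 4553, 5069 and 5081 in WT den muscle, against 19054, 17329, 17826 and 17988 in WT sham muscle. Each den library lay below each sham library of its genotype, with a log2 fold change of -1.93 ± 0.08 (SE, adjusted p = 3.5e-18) in Opg-/- and -1.85 ± 0.08 (SE, adjusted p = 5.2e-17) in WT mice. Slc2a1 (GLUT1), the transporter of most resting cells, had values of 372, 484, 385, 441 and 414 in Opg-/- den muscle, against 312, 367, 372, 277 and 304 in Opg-/- sham muscle. For WT the values were 407, 363, 308, 320.0 and 271 in WT den muscle, against 263, 266, 280.3 and 341 in WT sham muscle. It was called higher in Opg-/- mice alone, at 0.36 ± 0.11 (SE, adjusted p = 0.0051) in Opg-/- and 0.21 ± 0.11 (SE, adjusted p = 0.13) in WT mice. The difference between genotypes in this response was not called (interaction 0.15, adjusted p = 0.84), and the WT rise passed the threshold without WT den 5 or without WT sham 5 (adjusted p = 0.044 each) and with equal library totals (0.0020).

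Gpd1, the cytosolic glycerol-3-phosphate dehydrogenase that returns glycolytic NADH to a form the mitochondria can use, had values of 1054, 1065, 903, 1024 and 1064 in Opg-/- den muscle, against 19218, 15691, 16171, 15670.1 and 17156 in Opg-/- sham muscle. In WT it had 857, 1028, 1086, 820.1 and 1020.3 in WT den muscle, against 16198, 13875, 12573 and 14261 in WT sham muscle. It fell with no overlap, with a log2 fold change of -4.03 ± 0.08 (SE, adjusted p = 2.9e-25) in Opg-/- and -3.89 ± 0.09 (SE, adjusted p = 3.4e-24) in WT mice. Its relative Gpd1l had values of 636, 611, 588, 608 and 643 in Opg-/- den muscle, against 799, 694, 719.5, 785 and 787 in Opg-/- sham muscle. The WT libraries had 643, 654, 629, 563 and 631 in WT den muscle, against 738, 813, 693 and 824 in WT sham muscle. This gene changed little, by -0.29 ± 0.07 (SE, adjusted p = 5.5e-04) in Opg-/- and -0.30 ± 0.07 (SE, adjusted p = 9.6e-04) in WT mice, and with equal library totals its change was 0.16 and 0.01 (adjusted p = 0.085 and 0.94).

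The genes with the highest level in sham muscle were among those that fell. Ranked by mean value per kilobase of exon in WT sham muscle, the first 15 of the 44 genes, Aldoa and Gapdh at the top, fell in both genotypes, and the highest ranked gene called as higher stood at rank 31. The WT sham values entered both this rank and the WT fold change, so level and fall were not measured independently. The share of genes that fell among equally abundant genes of the whole table was not computed. In WT den muscle Aldoa remained first with 87840.0 per kb, against 175300.0 per kb in WT sham muscle. Eno3 stood at rank 8 in WT den muscle, against rank 4 in WT sham muscle. The depth of the fall did not follow the level alone: Aldoa, Gapdh and Pkm, all near the top, changed by less than Fbp2 and Pfkfb1, which had far lower levels.

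**Figure D4:**
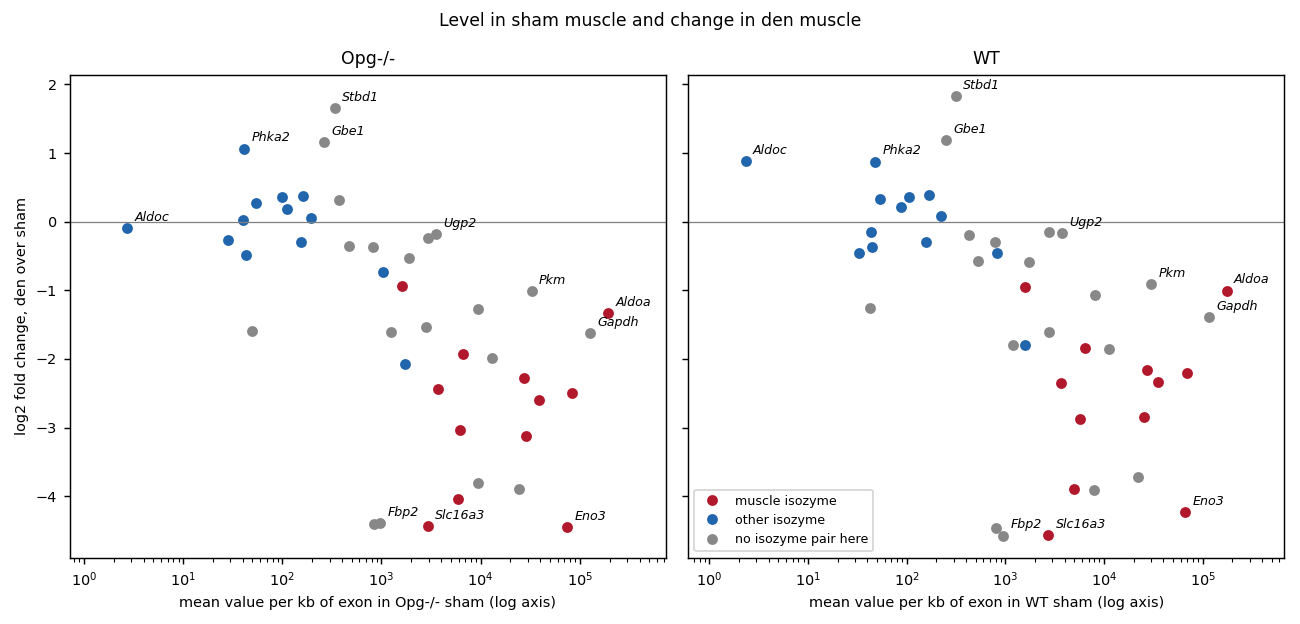
Log2 fold change of den over sham muscle (vertical axis) against the mean value per kilobase of exon in sham muscle of the same genotype (horizontal log axis) for the 44 genes, Opg-/- at left and WT at right. Red points are muscle isozymes, blue points are their partners and grey points have no pair on the list. Each muscle isozyme lies below 0 and to the right of its own partner, and most partners lie near 0. The sham values enter both axes.

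Of the 44 genes, none was called between Opg-/- and WT sham muscle (0.106% of all genes were, 19 genes), none between Opg-/- and WT den muscle (0.0613%, 11 genes) and none in the interaction of genotype and denervation (0.00557%, 1 gene) in limma. At an unadjusted p under 0.05 there were 8, 4 and 4 of the 44 genes, against 2146, 1237 and 1249 of all 17948, and limma voom on the recovered reads also called 0 of the 44 in each. The smallest p belonged to Eno1 in sham muscle, with 2637 ± 292 in Opg-/- (SD, n = 5) and 2089 ± 219 in WT mice (SD, n = 4), a log2 fold change of 0.34 (95% interval 0.17 to 0.50, adjusted p = 0.090 in limma). Its adjusted p was 0.033 without Opg-/- sham 2 and 0.029 without the averaged WT sham 1 and 2. The 95% interval of the genotype difference lay within ±0.5 on the log2 scale for 37 of the 44 genes in sham muscle and for 38 in den muscle. For the difference between the denervation responses it did so for 29, and it lay within ±1 for 42 in each of the 3 comparisons.

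Genes of the same pathways outside the 44 moved in both directions, as did the genes of the whole table. For the lists here and below, the shares of all genes tested were 26.4% lower and 28.6% higher in Opg-/- mice, and 25.7% and 26.9% in WT. Of 17 other glycolytic genes 12 passed the filter, and 5 fell and 3 rose in Opg-/- mice (6 and 2 in WT). Bpgm and Tigar, which divert or remove intermediates of the chain, fell (log2 fold change -2.87 and -1.90 in Opg-/- mice, -2.55 and -1.83 in WT). Of 13 other glycogen genes 12 were tested, and 3 fell and 2 rose in Opg-/- mice (5 and 2 in WT). Gaa, the lysosomal glucosidase that degrades glycogen, rose by 0.64 in Opg-/- and 0.81 in WT mice.

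Of 9 other glucose and lactate transporters and their partners, 3 fell and 3 rose in each genotype. Bsg, the chaperone that carries MCT1 and MCT4 to the surface, fell (log2 fold change -0.83 in Opg-/- and -0.69 in WT mice). Emb, a related chaperone of monocarboxylate transporters, had values of 1281, 1269, 1466, 1653 and 1331 in Opg-/- den muscle, against 24.2, 28.9, 23.9, 44.7 and 28.6 in Opg-/- sham muscle. For WT the values were 1380.4, 1562, 988, 917 and 1033 in WT den muscle, against 27, 51.8, 22.6 and 48.5 in WT sham muscle. The rise was without overlap, at 5.52 in Opg-/- and 4.99 in WT mice. A list of 15 genes held the mitochondrial pyruvate carrier, pyruvate dehydrogenase, its inhibiting kinases and activating phosphatases, and pyruvate carboxylase. Of these 15 genes, 14 fell in Opg-/- mice and 12 in WT, with none higher. Genes of opposite effect, such as Pdk4 and Pdp1, were both among those that fell. The carrier gene Mpc1 was not called in WT (log2 fold change -0.18, adjusted p = 0.069 in limma). Of 8 genes of the NADH shuttles 7 fell in each genotype. Of 8 genes of the pentose phosphate pathway, 3 rose (Pgd, Pgls and Taldo1) and 1 fell (Rpia) in each genotype. Of 24 regulators of glycogen and glucose use, 12 fell and 6 rose in Opg-/- mice and 12 fell and 8 rose in WT. Tbc1d4, a gatekeeper of GLUT4 traffic, fell (log2 fold change -2.94 in Opg-/- and -2.76 in WT mice), and its relative Tbc1d1 rose (1.11 and 0.96).

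Markers of cell types and fibre types also changed, in directions that differed between lists. In bulk muscle, fewer cells of a type and less RNA per cell cannot be told apart. Of 12 markers of skeletal muscle fibres 9 fell and 2 rose in Opg-/- mice and 6 fell and 3 rose in WT, with sums of 1255000 to 1698000 in Opg-/- den, against 3618000 to 4571000 in Opg-/- sham muscle, and 1314000 to 1743000 in WT den, against 3102000 to 4019000 in WT sham muscle. The markers of fast IIB fibres, the most glycolytic type, fell in 4 of 4 genes in Opg-/- and 3 of 4 in WT mice, and their summed level was 344400 to 505800 in Opg-/- den, against 1666000 to 2047000 in Opg-/- sham muscle, and 325200 to 532600 in WT den, against 1280000 to 1786000 in WT sham muscle. Myh4 is on both of these lists and made up most of the IIB sum in sham muscle. Its mean was 1356770 in Opg-/- sham and 1017540 in WT sham muscle, so the falls of both sums are not separate observations. By antibody staining the study reported a higher percentage of type IIB fibres after denervation in both genotypes, a measure that counts fibres and not RNA. Slow fibre markers were mixed, with 2 of 7 lower and 2 higher in Opg-/- mice and 1 lower and 3 higher in WT. Markers of macrophages rose in 12 of 12 genes in Opg-/- and 7 of 12 in WT mice, with sums of 2932 to 7023 in Opg-/- den, against 1329 to 2482 in Opg-/- sham muscle, and 3011 to 6744 in WT den, against 2337 to 3518 in WT sham muscle. Endothelial markers fell in 10 of 10 genes in both genotypes, with sums of 4122 to 5302 in Opg-/- den, against 9315 to 11470 in Opg-/- sham muscle, and 4208 to 5594 in WT den, against 9618 to 10610 in WT sham muscle. Schwann cell markers fell in 5 of 9 genes in both genotypes, adipocyte markers in 1 of 7 in Opg-/- and 6 of 7 in WT mice, and erythroid markers in 4 of 6 and 1 of 6. Of 9 fibroblast markers 3 fell and 2 rose in Opg-/- mice and 3 fell and 1 rose in WT, and of 5 satellite cell markers 2 fell and 1 rose in Opg-/- mice and 0 fell and 1 rose in WT. No marker of these lists was at 0 in all libraries. None was called in the interaction of genotype and denervation or between genotypes in either limb. Unequal counts of calls in the 2 genotypes therefore do not show a difference in response. The part of such shifts in the levels of the 44 genes was not tested.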

How the data were processed

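RNA sequencing gave 20 libraries of mouse gastrocnemius muscle, 5 in each of 4 groups (Opg-/- den, Opg-/- sham, WT den and WT sham). The authors prepared libraries without strand information, used STAR for alignment to mm10 and RSEM for gene levels (versions are not given in the sources used here). The deposited table holds signal values, in which each library's expected counts have been divided by its own size factor. In each library 87.2% to 88.3% of the values above 0 were whole multiples of a single read within 0.01 read. A gene was tested if 4 or more libraries had a value of 1 or higher (17948 genes). The model was limma 3.58.1 (R 4.3.3) on log2 of the value plus 1, with trend and robust estimation of the variance and all 4 groups together, two-sided, and p was adjusted over all genes tested by the Benjamini-Hochberg method. Contrasts were den over sham within a genotype, Opg-/- over WT within a limb, and the difference between both denervation responses. A gene was called at an adjusted p under 0.05. Isozyme ratios were tested by exact permutation of libraries (Python 3.11.15, scipy 1.17.1). Count tests (edgeR and DESeq2) were not run, because the table is normalized and the recovered reads were not all whole, while voom takes fractional values. Standard errors and p-values reflect differences between libraries, with no correction for duplicate reads.

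The genes, the lists of other pathway genes and the markers were chosen with earlier results of these data known. Values in every library are given for the 2 called genes with the largest change in each role in WT, every gene called higher in den muscle, Gapdh and the enolase and mutase pairs. Emb and the other genes outside the 44 that are named with a fold change or a direction were chosen after their values were seen. IDs were looked up in GENCODE release M21 (32158 of 32285, or 99.61%, found), and exon lengths, overlaps and stretches of 100 bases shared with other transcripts were computed from it. Aldoa has a second row of the same name, with values of 1.60 to 31.5, which was left out. Alternatives were no filter, a stricter one (10 or higher in all libraries of a group), a pseudocount of 0.1, a fit without the other groups, separate WT sham 1 and 2, each library left out, a replicate block, and equal library totals. Voom on recovered reads and leaving out both WT sham 1 and 2 were added after seeing the data. The pipeline was tested on simulated data.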

Additional observations from a re-analysis of the deposited data

Results flagged for a closer look

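Within each of the 4 groups the highest and the lowest library of each of the 44 genes were set against the others of the group. In 13 of 176 gene and group combinations 1 library stood apart by Dixon's 95% criterion, and chance alone would give about 1 in 20. Opg-/- sham 1 was the highest of its group for Gapdh (237660.0, against 172281 to 184879 in the other 4), Pgk1 (27855), Eno3 (135449) and Ldha (64898). WT sham 1 and 2, counted as 1 library, was the highest for Eno3 (118484). WT sham 3 was the lowest for Ldhb (1499). WT den 4 was the lowest for Pfkp (70.5), Ppp1r3c (1244) and Gpd1l (563). Opg-/- den 1 was the highest for Tpi1 (3569) and Ppp1r3a (4214). Opg-/- den 3 was the lowest for Gpd1 (903), and Opg-/- sham 3 the lowest for Pfkl (170.0). No gene moved in opposite directions in the 2 genotypes without overlap, and none was called in the interaction.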

How the results depend on the processing

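Under most alternatives the counts of the 44 genes called and their medians stayed near those reported. With equal library totals the median log2 fold change was -0.69 in Opg-/- and -0.68 in WT mice, and 11 genes rose in Opg-/- mice. That scaling turned the sign of Gyg (0.22 in Opg-/- and 0.16 in WT mice), Pfkfb4 (0.087 and 0.011), Gpd1l (0.16 and 0.0095) and Epm2a (0.10 and 0.11), and of Ugp2 in Opg-/- mice (0.27). The cause was not tested. With an absolute log2 fold change above 1 as well, 3 genes rose in Opg-/- and 2 in WT mice. The filter of at least 10 in every library of a compared group tested fewer genes and gave a median of -1.27 in Opg-/- mice. With 1 library left out, 30 to 32 genes fell and 5 to 6 rose in Opg-/- mice (median -1.17 to -1.10), 29 to 31 fell and 5 to 8 rose in WT (median -1.02 to -0.92), 12 to 13 isozyme ratios were lower in each genotype, and 0 to 1 genes were called between Opg-/- and WT sham muscle (Eno1). Between den muscles and in the interaction 0 were called. The ratio lost in these fits was Aldoa/Aldoc, which was also lost with a pseudocount of 0.1 in Opg-/- mice (adjusted p = 0.056). Voom on recovered reads called 31 genes lower and 5 higher in Opg-/- mice, without Pfkl (adjusted p = 0.051), and the same counts as reported in WT. Without a filter the WT call of Epm2a was lost (adjusted p = 0.051).

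Nothing states that a replicate number marks a mouse. Deviations from the group mean of libraries with the same number correlated at 0.01 to 0.05 in Opg-/- and -0.05 to 0.07 in WT mice, and 3 of 5 and 2 of 5 libraries correlated best with their own number. A replicate block gave 31 lower and 6 higher in each genotype, with medians of -1.14 in Opg-/- and -0.99 in WT mice, and 0 genes in the interaction. Unlike the main fit, these correlations and the block used WT sham 1 and 2 as separate libraries. The count tests foreseen were not run. Genes with values of a few reads, such as Aldoc, were limited by depth.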
